A study of Aspergillus nidulans with 24 samples.

Results

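Gene expression of wild type Aspergillus nidulans, a filamentous ascomycete, was compared between urea and ammonium tartrate as the nitrogen source, with glucose as the carbon source. The comparison takes 6 of the 24 libraries of the series, 3 grown on urea and 3 on ammonium tartrate, and covers all 8728 genes of the deposited table. The tested medium held 1% glucose and 5 mM urea, and its counterpart 1% glucose and 10 mM ammonium tartrate. The 6 libraries come from a strain whose genotype label is biA1, a biotin auxotrophy that both groups carry. The mycelium was grown in minimal medium at 37 °C for 9 to 11 h, a range given for all samples rather than for each. The same pair of nitrogen sources was also measured in an areB deletion strain on glucose and in the wild type on 0.1% fructose, with 3 libraries in each group. The deletion strain carries areB{delta}::A.f. pyrG with pyrG89, argB2, nkuA{delta}::argB, pabaB22 and riboB2, so it differs from the wild type by more than areB. Tartrate was present in the ammonium media alone, so the parts of ammonium and of tartrate in any difference cannot be told apart.

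Ammonium is a preferred nitrogen source of this fungus and represses the genes for using other sources, a regime known as nitrogen metabolite repression. The GATA factor AreA activates those genes when preferred sources are scarce, TamA acts as its co-activator, NmrA binds AreA and holds it back, and AreB is a second GATA factor that counters AreA. Urea does not repress. It enters through the permease UreA and is split by urease into ammonia and carbon dioxide, after which glutamine synthetase and glutamate dehydrogenase take up the ammonia. The comparison asks which genes differ between a non-repressing and a repressing nitrogen source while glucose keeps carbon repression on.

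Values are the authors' counts per gene divided by the size factor of each library, here called normalised reads. The deposited table gives the mean of each group, and whole reads per library were worked out from those means for the genes with a mean of at most 5000 normalised reads. The recovered libraries carry no replicate number, so within each group they are called A, B and C in order of falling depth, and a letter pairs nothing between groups. Over the genes with recovered reads, urea libraries A, B and C held 3455980, 2955596 and 1425828 reads, and ammonium libraries A, B and C held 2838498, 2228347 and 1751135. These totals leave out the genes above that limit, 57 on urea and 46 on ammonium tartrate, so the full depths were greater. Over 7212 genes, the libraries of a group correlated at 0.9457 to 0.9788 on urea and at 0.8925 to 0.9662 on ammonium tartrate (Pearson's r across genes, which are not independent replicates). Ammonium library C stood apart: it correlated at 0.9467 with urea library B, against 0.9223 and 0.8925 with the other two ammonium libraries. Urea library B correlated as closely with ammonium library C as with urea libraries A and C (0.9457 and 0.9489). Results that change when these 2 libraries are left out are given both ways. The pair was picked after the libraries had been compared, so values without it describe how far a result rests on those libraries and lend no support to a call.

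In the group means, 84 genes (1.16% of the 7272 with a mean of at least 10 normalised reads over both groups) were at least 2-fold higher on urea and 201 (2.76%) were at least 2-fold lower, 285 in all (3.92%). The median log2 ratio of urea over ammonium tartrate was -0.03. The 3 urea libraries all lay above the 3 ammonium libraries for 68 of the 84 genes higher in the mean, and all below them for 91 of the 201 genes lower in the mean. Among all 7212 genes with recovered reads, 386 (5.35%) had every urea library above and 543 (7.53%) every urea library below. Of the other 110 genes lower in the mean, 82 had their highest value in ammonium library A. For 109 of the 201 genes 1 ammonium library held more normalised reads than the other two together, and it was library A for 77 of these.

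limma with voom weights, fitted to the 6 libraries and adjusted over the 7212 genes by Benjamini-Hochberg, called 10 genes higher (0.139%) and 8 lower (0.111%) on urea at an adjusted p under 0.05. A further view of the same fit is the 527 genes (7.31%) with an unadjusted p under 0.05. All 18 called genes were past 2-fold in the group means, and none had urea and ammonium libraries that overlapped. Without urea library B and ammonium library C the fit called 47 genes higher and 85 lower, the 18 among them, which is no check of the calls given how the pair was picked. Leaving out 1 library kept 1 to 18 of the 18 calls. The count kept was 2 without urea library A or C, 11 without urea library B, 4 and 1 without ammonium libraries A and B, and 18 without ammonium library C. Each adjusted p below is from this fit unless another is named.

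**Figure D1:**
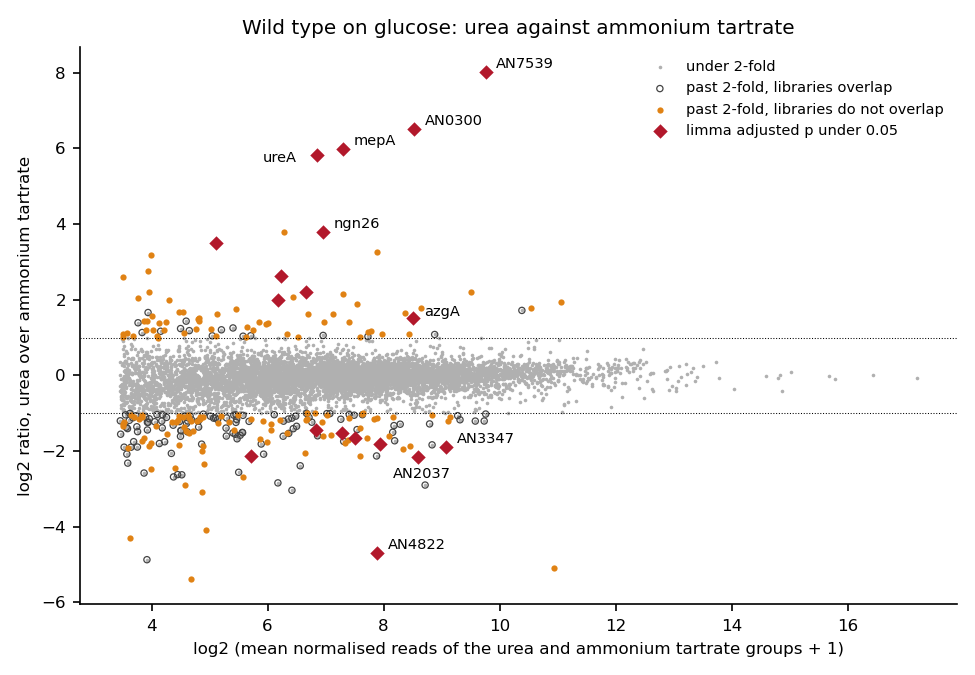
Log2 ratio of the group means (urea over ammonium tartrate, 1 normalised read added to each) against the log2 of the mean level of each gene (normalised reads plus 1) in the wild type on glucose. Diamonds are the 18 genes called by limma, filled points other genes past 2-fold whose libraries do not overlap and open points those whose libraries do, and among the genes past 2-fold 84 lie above and 201 below 0.

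A permease of urea and a permease of ammonium were among the 4 genes with the largest rises. ureA, the urea permease, had 264, 233 and 183 normalised reads on urea, against 6.80, 0.95 and 1.35 on ammonium tartrate. Those ammonium values come from 9, 1 and 1 reads. ureA rose by a log2 fold change of 6.27 ± 0.68 (SE, adjusted p = 0.0160). ureB, the urease structural gene, had 663, 581 and 733 normalised reads on urea and 362, 275 and 357 on ammonium tartrate. All urea libraries stood above all ammonium libraries, with means of 659 ± 76.1 and 331 ± 48.7 (SD, n = 3 each), but the log2 fold change of 1.00 ± 0.18 had an adjusted p of 0.130. Without urea library B and ammonium library C the values were 1.14 ± 0.18 and 0.0204. ureD, for a nickel-binding protein of urea use, overlapped between groups, with 721, 650.0 and 787 normalised reads on urea and 673, 842 and 766 on ammonium tartrate.

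The ammonium permease genes mepA and meaA were higher on urea too. mepA, a high-affinity ammonium transporter, had 310.4, 391 and 223 normalised reads on urea, against 8.31, 1.89 and 1.35 on ammonium tartrate. It rose by a log2 fold change of 6.33 ± 0.73 (adjusted p = 0.0197). meaA, which carries most ammonium uptake, had 1325, 1246 and 1001 normalised reads on urea, against 432, 182 and 158 on ammonium tartrate. The groups did not overlap, but its log2 fold change of 2.30 ± 0.37 had an adjusted p of 0.0713, which was 0.0307 without urea library B and ammonium library C. Another permease gene, mepB, stayed below the filter with 4.81, 4.604 and 5.96 normalised reads on urea and 1.51, 1.89 and 0 on ammonium tartrate. mepC, of the same gene list, passed the filter and did not rise, with a log2 ratio of the group means of -0.10.

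The enzymes that take up ammonia differed less. glnA, glutamine synthetase, had 4570.2, 5392 and 3948 normalised reads on urea and 3255, 3483 and 3614 on ammonium tartrate, every urea library being higher (log2 fold change 0.40 ± 0.19, adjusted p = 0.710). gdhA, the NADP-linked glutamate dehydrogenase, overlapped between groups at 3098, 1882 and 2001 normalised reads on urea and 2449, 2001 and 1022 on ammonium tartrate. gltA, glutamate synthase, overlapped too, at 2007, 4301 and 1914 on urea and 1129, 802 and 2355 on ammonium tartrate. The highest of its 6 values was in urea library B and the highest ammonium value in ammonium library C, the 2 libraries that stood apart. The log2 fold change of gltA was 0.95 ± 0.45 (adjusted p = 0.712) with these libraries and 1.04 ± 0.19 (adjusted p = 0.0359) without them. The list of ammonium uptake and glutamate and glutamine synthesis had 6 members passing the filter, ammonium permease genes among them. In the 6-library fit 1 of the 6 rose, the permease gene mepA, and 0 fell. The median log2 ratio of the 6 was 0.68.

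**Figure D2:**
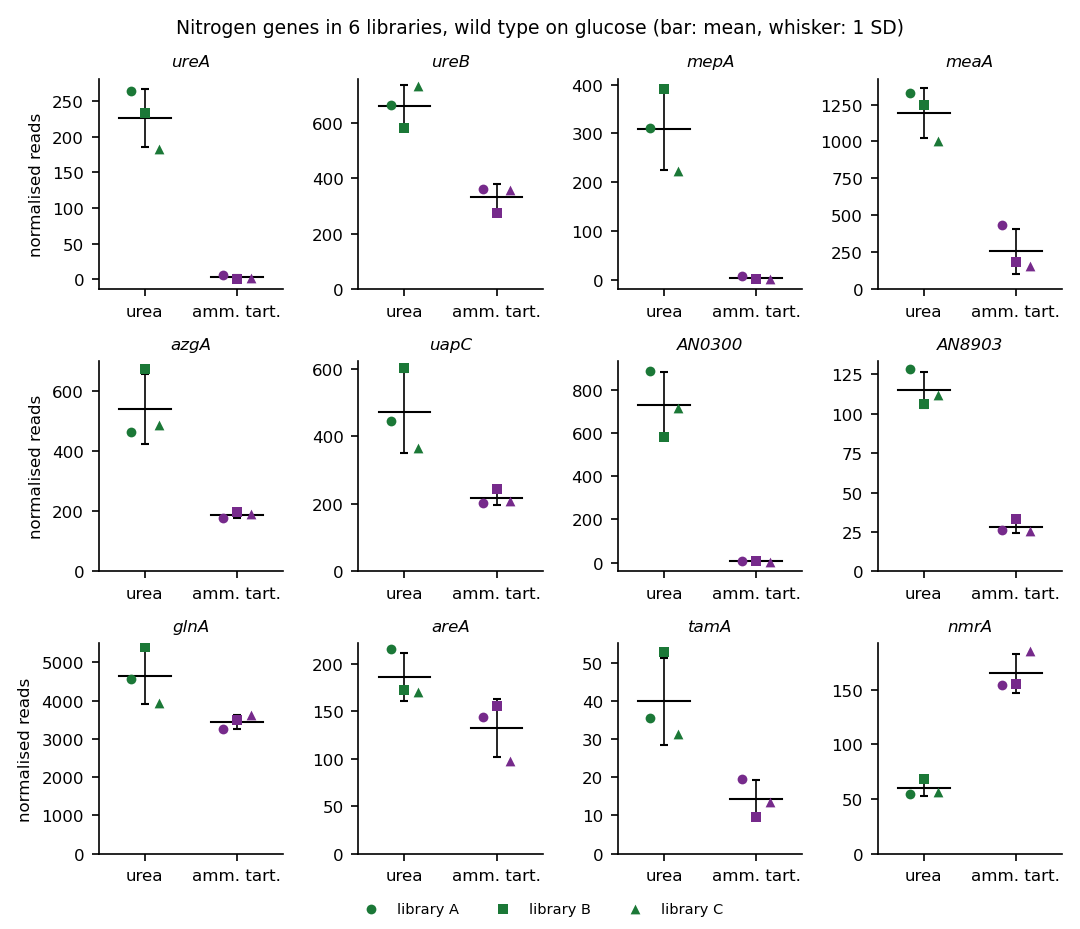
Normalised reads (linear axes, 1 scale per panel) of 12 nitrogen genes in each wild type library on glucose, urea left and ammonium tartrate (amm. tart.) right in each panel. Points are libraries, the bar is the group mean and the whisker 1 SD. ureA, mepA and AN0300 are apart by more than 10-fold in every library, while areA and glnA lie close together.

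Several carriers of purines were higher on urea. azgA, the transporter of adenine, guanine and hypoxanthine, had 461, 673 and 486 normalised reads on urea, against 177, 196 and 190.1 on ammonium tartrate, and rose by a log2 fold change of 1.51 ± 0.19 (adjusted p = 0.0278). uapA, the uric acid and xanthine permease, had 36.1, 32.2 and 14.9 normalised reads on urea and 2.27, 2.84 and 1.35 on ammonium tartrate (adjusted p = 0.173). uapC, a broader purine permease, had 446, 602 and 366 on urea and 202, 244 and 209 on ammonium tartrate (adjusted p = 0.180). Neither pair of groups overlapped, yet azgA alone of the 3 passed.

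xanA, a xanthine dioxygenase that makes uric acid, had 88.4, 263 and 83.4 normalised reads on urea, against 10.6, 8.51 and 9.44 on ammonium tartrate. Its log2 fold change was 3.68 ± 0.79 (adjusted p = 0.215), and without urea library B and ammonium library C it was 3.12 ± 0.35 (adjusted p = 0.00675). AN5939, a putative 5′-nucleotidase, had 135, 122 and 127 normalised reads on urea and 15.1, 22.7 and 21.6 on ammonium tartrate. It rose by a log2 fold change of 2.72 ± 0.27 (adjusted p = 0.0140) and is not in the list of purine and pyrimidine genes. Of that list, 4 of 12 members passing the filter were past 2-fold higher in the mean and 0 lower, 1 was called by limma, and the median log2 ratio was 0.57.

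Genes for taking nitrogen from asparagine and peptides include the rise that was called in the most fits. AN0300, a putative asparaginase, had 888, 582 and 715 normalised reads on urea, against 7.55, 9.46 and 4.04 on ammonium tartrate. The ammonium values rest on 10, 10 and 3 reads. Its log2 fold change was 6.58 ± 0.46 (adjusted p = 0.00220), and it was called in 5 of the 6 fits that left out 1 library, with a highest adjusted p of 0.0575. The list of asparaginases and amidases, added after the values were seen and holding AN0300 itself, did not move alike. Of 18 members passing the filter, AN0300 included, 2 were past 2-fold higher and 0 lower, with a median log2 ratio of -0.04. The 1 member called by limma was AN0300. AN8903, a putative peptide transporter, had 128, 106 and 112 normalised reads on urea and 26.4, 33.1 and 25.6 on ammonium tartrate. It rose by a log2 fold change of 2.01 ± 0.24 (adjusted p = 0.0197). AN2572, a putative dipeptidyl-peptidase, had 71.0, 49.1 and 67.0 on urea and 3.02, 6.62 and 4.04 on ammonium tartrate, and rose by a log2 fold change of 3.70 ± 0.49 (adjusted p = 0.0298).

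Amino acid carriers were mixed. agtA, the permease of the acidic amino acids, had 33.7, 19.2 and 20.9 normalised reads on urea and 3.78, 5.67 and 4.04 on ammonium tartrate (log2 fold change 2.37 ± 0.51, adjusted p = 0.215). AN1061, a putative permease of 4-aminobutyrate, had 287, 220.2 and 258 on urea and 53.6, 87.9 and 27.0 on ammonium tartrate, with a log2 fold change of 2.25 ± 0.35 and an adjusted p of 0.0645. That p was 0.00694 without urea library B and ammonium library C. prnB, the proline permease, had 138, 76.7 and 110.2 on urea and 71.0, 45.4 and 33.7 on ammonium tartrate (log2 fold change 1.07 ± 0.34, adjusted p = 0.550). In all 3 the urea libraries lay above the ammonium libraries, and none passed in the 6-library fit.

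nmrA, the co-repressor gene, was the one called among 12 regulators. It had 54.7, 68.3 and 56.6 normalised reads on urea, against 155, 155 and 186 on ammonium tartrate. It fell by 1.45 on the log2 scale (SE 0.20, adjusted p = 0.0326), with group means of 59.9 ± 7.35 on urea and 165 ± 18.0 on ammonium tartrate (SD, n = 3 each). The call of nmrA held in 1 of the 6 fits that left out a library (highest adjusted p 0.287). Its adjusted p was 0.0525 with the spread shared with the deletion groups on glucose. That fit kept 12 of the 18 calls, and AN2037, AN11697, AN2572, ngn26 and AN3348 were lost with nmrA. areA itself had 215, 173 and 169.8 normalised reads on urea and 144, 155 and 97.1 on ammonium tartrate, groups that did not overlap but differed by a log2 fold change of only 0.50 ± 0.22 (adjusted p = 0.690). areB had 98.7, 98.2 and 84.9 on urea and 76.3, 60.5 and 83.6 on ammonium tartrate (adjusted p = 0.747). tamA had 35.5, 53.0 and 31.3 on urea and 19.6, 9.46 and 13.5 on ammonium tartrate, again without overlap (log2 fold change 1.48 ± 0.40, adjusted p = 0.385).

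meaB, a bZIP regulator of nitrogen repression, overlapped between groups at 39.7, 34.5 and 28.3 normalised reads on urea and 25.7, 31.2 and 27.0 on ammonium tartrate. creA, the carbon catabolite repressor, had 49.9, 37.6 and 38.7 on urea and 84.6, 55.8 and 45.8 on ammonium tartrate, which overlap. Over the 12 nitrogen regulators, 1 was past 2-fold higher and 2 lower in the mean, 1 was called lower and 0 higher, and the median log2 ratio was 0.15.

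The nitrate genes need nitrate as well as relief from repression, and those passing the filter stayed mostly together. Neither medium was made with nitrate as its nitrogen source. niaD, nitrate reductase, had 92.0, 129.7 and 77.5 normalised reads on urea and 92.9, 53.0 and 39.1 on ammonium tartrate. niiA, nitrite reductase, had 1671, 3208 and 1872 on urea and 1832, 1440.2 and 1157 on ammonium tartrate. Both overlapped between groups. nirA, the pathway activator, had 83.02, 89.02 and 80.4 on urea and 106.5, 88.9 and 106.5 on ammonium tartrate. fhbA, a flavohaemoglobin that detoxifies nitric oxide, was lower in every urea library, with 165, 91.3 and 131 on urea and 167, 288 and 332 on ammonium tartrate (log2 fold change -0.98 ± 0.32, adjusted p = 0.564). The nitrate transporter genes nitA and crnA lay below the filter, with 21.7, 10.7 and 17.9 and with 7.22, 23.0 and 7.45 normalised reads on urea. On ammonium tartrate each had reads in library A alone, at 1.51 normalised reads for nitA and 3.78 for crnA. For both genes every urea library lay above every ammonium library, at these low levels. Of the nitrate assimilation list, 9 of 13 members passed the filter, 0 were past 2-fold higher and 1 lower, with a median log2 ratio of -0.01.

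Outside the gene groups named so far, 3 further genes rose. AN7539, a putative hydrophobin, a small protein of the hyphal surface, had 1249, 2517 and 1409 normalised reads on urea, against 14.3, 0 and 2.696 on ammonium tartrate. Its log2 fold change of 9.05 ± 1.10 (adjusted p = 0.0197) depends on how the 0 is treated, and the log2 ratio of the group means was 8.01. AN7539 is also among the genes whose description names induction by nitrate, a list added after the values were seen. AN2978, which has no named function in the table, had 159, 199 and 142 normalised reads on urea and 43.8, 35.0 and 27.0 on ammonium tartrate (log2 fold change 2.20 ± 0.26, adjusted p = 0.0197). ngn26, the counterpart of the Aspergillus fumigatus siderophore transacetylase SidG, had 229, 183 and 280.1 on urea and 16.6, 25.5 and 5.39 on ammonium tartrate. It rose by a log2 fold change of 3.90 ± 0.47 (adjusted p = 0.0197).

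Other iron genes were not called. mirB, a siderophore transporter gene next to ngn26 on chromosome V, had 3059, 1302 and 2515 normalised reads on urea and 799, 1095 and 106.5 on ammonium tartrate (log2 fold change 2.22 ± 0.84, adjusted p = 0.621). Without urea library B and ammonium library C the log2 fold change was 1.56 ± 0.19 (adjusted p = 0.00744). sidI, for siderophore synthesis, overlapped between groups, with 2415, 1046 and 2328 on urea and 1532, 1665 and 236 on ammonium tartrate. Of 17 iron genes, 2 were past 2-fold higher and 0 lower, and the median log2 ratio was 0.10. Of the 15 with recovered reads, 13 had a limma log2 fold change above 0, as did 3390 of all 7212 genes.

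Among ion pumps, enaB, a putative membrane ATPase of the sodium pump family, had 392, 509.6 and 375 normalised reads on urea and 8.31, 27.4 and 95.7 on ammonium tartrate. The ammonium libraries spread by more than 10-fold among themselves, and the log2 fold change of 4.16 ± 0.61 had an adjusted p of 0.0510. It was 4.70 ± 0.42 (adjusted p = 0.00352) without urea library B and ammonium library C. AN6115, whose orthologs import nickel, had 145, 134 and 137 on urea and 48.3, 18.9 and 29.7 on ammonium tartrate (log2 fold change 2.14 ± 0.32, adjusted p = 0.0551, and 0.0272 without those 2 libraries). Urease is a nickel enzyme. The list of pH signalling and ion pump genes had 2 of 13 members past 2-fold higher and 0 lower, with a median log2 ratio of -0.15.

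The strongest call among the genes lower on urea is a gene of tartrate use. AN4822, a putative tartrate dehydrogenase, had 25.3, 13.0 and 11.9 normalised reads on urea, against 389, 474 and 506 on ammonium tartrate. It fell by 4.69 on the log2 scale (SE 0.33, adjusted p = 0.00220). It was the one gene called in all 6 fits that left out a library, with a highest adjusted p of 0.0439. The ammonium medium was the one that held tartrate, so the lower level on urea is also a lower level without tartrate.

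Of the 7 others that fell, most are named by prediction alone. AN7792, a putative lysophospholipase, had 105, 105 and 110.2 normalised reads on urea and 433, 355 and 351 on ammonium tartrate (log2 fold change -1.83 ± 0.17, adjusted p = 0.0125). AN2037, a predicted NAD-binding oxidoreductase, had 154, 137 and 129.6 on urea and 834, 539 and 509.6 on ammonium tartrate (log2 fold change -2.11 ± 0.23, adjusted p = 0.0160). AN11697, with a predicted glycosyltransferase domain, had 89.03, 79.8 and 90.9 on urea and 332, 285 and 213 on ammonium tartrate. It fell by 1.67 on the log2 scale (SE 0.22, adjusted p = 0.0278). AN2209, with no named function, had 16.2, 14.6 and 25.3 on urea and 98.9, 70.9 and 83.6 on ammonium tartrate, and fell by 2.27 on the log2 scale (SE 0.30, adjusted p = 0.0298). In each of these 4 genes the groups stayed apart. The urea libraries kept within a narrower span of normalised reads, but at a lower level, so the span does not show closer replicates on urea.

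A pair of called genes are neighbours on chromosome VI. AN3347, a putative amino acid transporter, had 245, 168 and 273 normalised reads on urea and 907, 815 and 839 on ammonium tartrate (log2 fold change -1.94 ± 0.21, adjusted p = 0.0160). AN3348 beside it had 86.0, 69.1 and 83.4 on urea and 211, 227 and 256 on ammonium tartrate (log2 fold change -1.53 ± 0.19, adjusted p = 0.0197). AN3348 has annotated paralogs in this genome, and the sources used here do not say how reads shared between copies were counted. The next gene, CYP659A1, a cytochrome P450, had 8.42, 3.07 and 14.9 on urea and 37.8, 37.8 and 25.6 on ammonium tartrate, without overlap, at an adjusted p of 0.239. These 3 form 1 of 3 stretches of 3 adjacent genes that were all past 2-fold lower in the mean, and no stretch reached 4 genes. nmrA, which fell, lies on chromosome II beside apnA, a second putative asparaginase gene, which had 215, 378 and 325 on urea and 443, 472 and 696 on ammonium tartrate (adjusted p = 0.550).

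**Figure D3:**
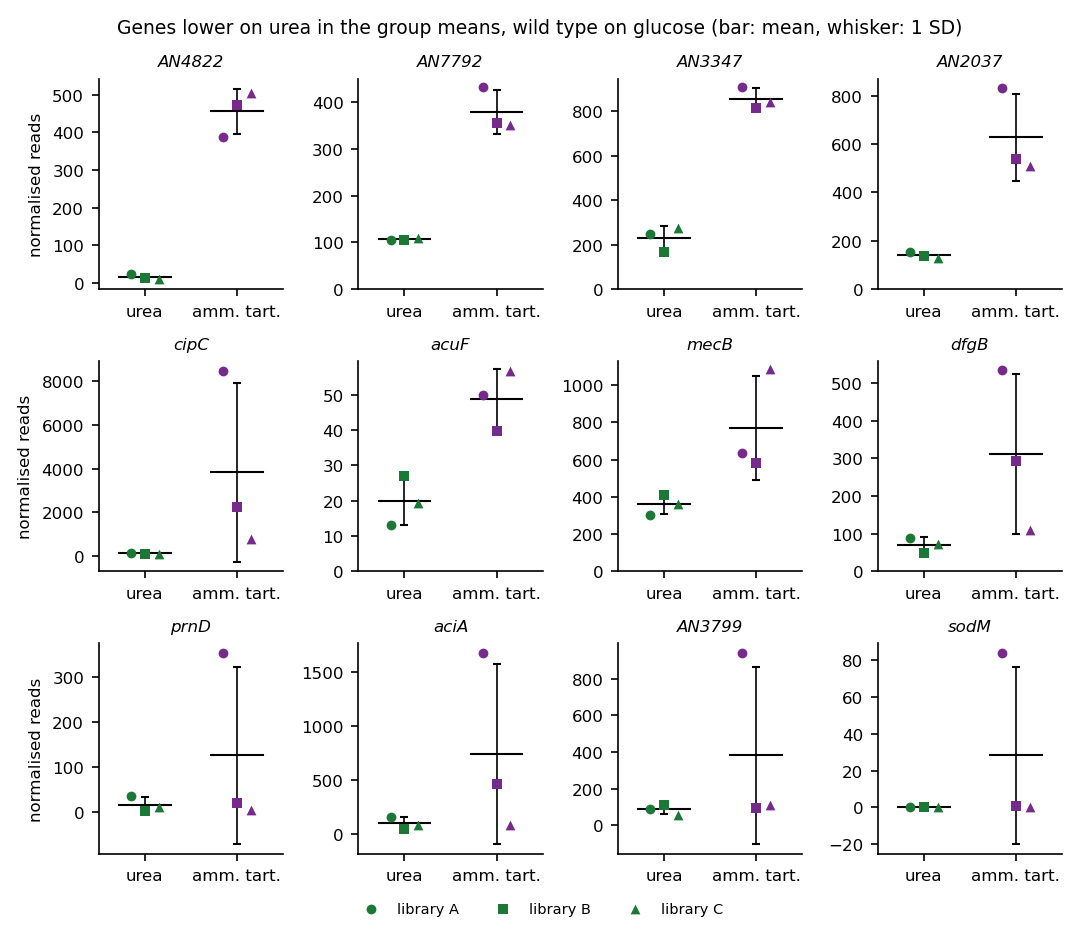
Normalised reads (linear axes, 1 scale per panel) of 12 genes with a lower group mean on urea, urea left and ammonium tartrate (amm. tart.) right in each panel. Points are libraries, the bar is the mean and the whisker 1 SD, which reaches below 0 where 1 library is far above the others. The ammonium libraries lie close together for AN4822, AN7792, AN3347 and AN2037 and far apart for cipC, prnD, aciA, AN3799 and sodM.

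Some larger differences of the mean did not pass, in genes whose ammonium libraries lay far apart. cipC, named for its response to the antibiotic concanamycin, had 132, 102 and 101 normalised reads on urea, against 8480.3, 2222 and 774 on ammonium tartrate. The groups did not overlap, and the log2 fold change of -4.37 ± 0.74 had an adjusted p of 0.0936. It was -5.17 ± 0.56 (adjusted p = 0.00607) without urea library B and ammonium library C. aciA, a formate dehydrogenase gene, had 161, 48.3 and 86.4 on urea and 1677, 463 and 79.5 on ammonium tartrate, and here ammonium library C lay within the urea range. dfgB, a putative endo-mannanase, had 89.6, 49.1 and 73.0 on urea and 534, 294 and 109 on ammonium tartrate (adjusted p = 0.468). In all 3 the order of the ammonium libraries was A, B, C from high to low.

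For other genes ammonium library A alone made the difference. prnD, proline oxidase, had 36.7, 3.07 and 10.4 normalised reads on urea and 353, 19.9 and 5.39 on ammonium tartrate. Its log2 ratio of the group means was -2.84, and 0.38 without ammonium library A. prnC, the next enzyme of proline use, had 10.2, 0 and 5.96 on urea and 103, 6.62 and 5.39 on ammonium tartrate. AN3799, whose orthologs carry zinc, had 89.6, 112 and 58.1 on urea and 940.0, 96.5 and 109 on ammonium tartrate. sodM, a superoxide dismutase gene, had no read on urea and 83.8, 0.95 and 0 on ammonium tartrate. zapA, a zinc regulator, had 12.03, 16.1 and 7.45 on urea and 101, 14.2 and 17.5 on ammonium tartrate. Adjusted p ran from 0.749 to 0.826 over sodM, zapA, AN3799, prnC and prnD. Of the 6 genes for zinc uptake and its regulation, a list added after the values were seen, 3 were past 2-fold lower in the mean and 0 higher, and limma called 0.

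No gene of the lists of acetate, ethanol, glycolysis and tricarboxylic acid metabolism was called. limma tested 10 of the 14 glycolysis genes and 5 of the 6 ethanol genes passing the filter, since the rest had no recovered reads. acuF, for the first committed step of gluconeogenesis, had 13.2, 26.9 and 19.4 normalised reads on urea and 49.8, 39.7 and 56.6 on ammonium tartrate (log2 fold change -1.35 ± 0.34, adjusted p = 0.339). Its groups did not overlap, as for 4 of the 13 genes of acetate use, the glyoxylate cycle and gluconeogenesis, all lower on urea. Among all 7212 genes with recovered reads, 543 (7.53%) had every urea library below. 2 of these 13 were past 2-fold lower in the mean and 0 higher, limma called 0, and the median log2 ratio was -0.20. alcA, alcohol dehydrogenase, had 10.8, 0 and 2.98 on urea and 80.0, 22.7 and 20.2 on ammonium tartrate, without overlap (adjusted p = 0.572). None of 14 glycolysis genes and none of 7 genes of the tricarboxylic acid cycle was past 2-fold, with median log2 ratios of -0.02 and -0.24. Of the 10 glycolysis genes with recovered reads, 3 had every urea library below and 0 every urea library above. mecB, cystathionine beta-synthase of sulfur amino acid synthesis, had 304, 411 and 363 on urea and 635, 579.7 and 1089 on ammonium tartrate (log2 fold change -1.06 ± 0.26, adjusted p = 0.332).

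**Figure D4:**
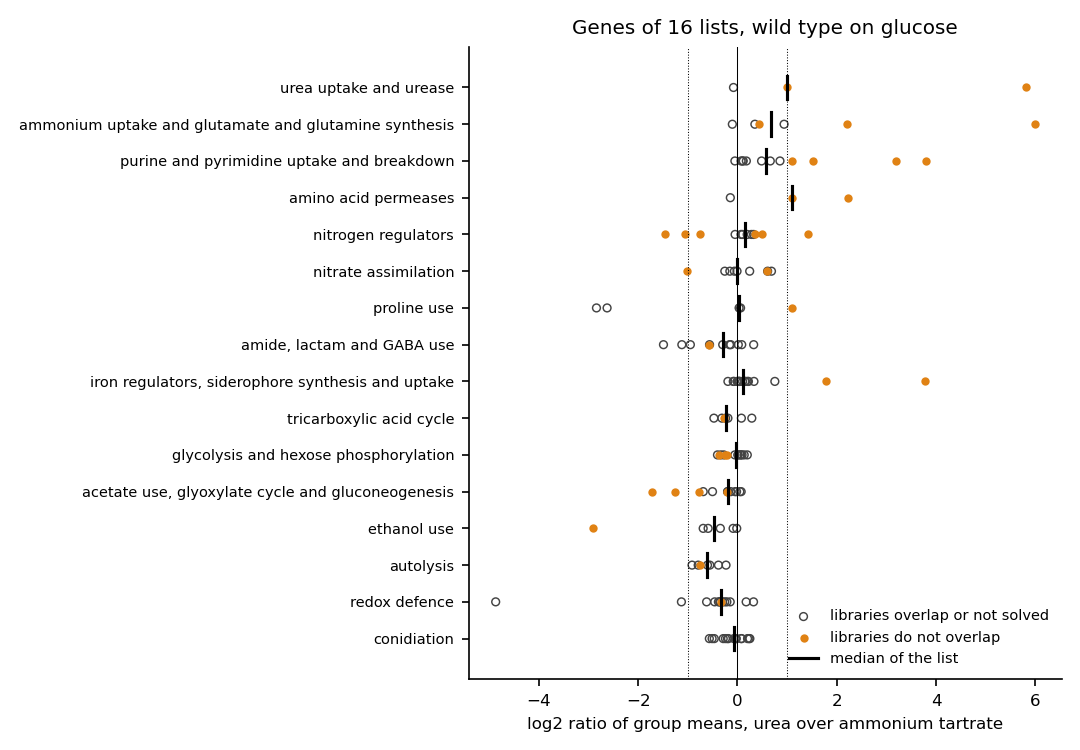
Log2 ratios of the group means (urea over ammonium tartrate) of the members of 16 gene lists that passed the filter. Each point is a gene, orange points are genes whose urea and ammonium libraries do not overlap, open points are those that overlap or were not solved, and the black tick is the median of the list. Medians lie furthest to the right for the amino acid permeases (1.10) and the urea genes (0.99), lists of 3 genes each, and at -0.60 for the autolysis genes.

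The lists of nitrogen supply differed in their medians. The urea list had 1 of 3 members called higher and 0 lower (median log2 ratio 0.99), and the 3 amino acid permeases had 2 past 2-fold higher, 0 lower and 0 called (1.10). A wider list of amino acid permeases, drawn by product words, had 17 members passing the filter and a median of 0.06. Of these 17, 2 were past 2-fold higher and 1 lower, and limma called 0 higher and 1 lower, AN3347. The proline and arginine lists had medians of 0.03 and 0.01. Genes of amide, lactam and GABA use were past 2-fold lower in 2 of 11 cases and higher in 0 (median -0.30). gabA, the 4-aminobutyrate permease, was 1 of these 2, with 11.4, 13.8 and 10.4 on urea and 60.4, 33.1 and 12.1 on ammonium tartrate, which overlap. The autolysis list had none of 7 members past 2-fold, but all 7 had a lower mean on urea (median -0.60). All 7 had a limma log2 fold change below 0, as did 3822 of all 7212 genes. 1 of the 7 had every urea library below, as did 543 of the 7212 (7.53%), and the lowest adjusted p was 0.440. The redox list had 2 of 14 past 2-fold lower and 0 higher (median -0.34), and the cytochrome P450 list 4 of 33 lower and 0 higher (median -0.23). Of 21 ribosomal protein genes and 46 proteasome genes none was past 2-fold, with medians of 0.19 and -0.07. The median over all 7272 genes was -0.03, and no test was made of any list.

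The material is labelled mycelium, and the conidiation regulators were low in both groups. brlA, the master regulator of conidiation, had 0 reads in all 6 libraries. abaA ranged from 4.604 to 10.4 normalised reads and wetA from 0.77 to 14.3. wA and yA, the spore pigment genes, did have reads, from 18.9 to 41.7 and from 47.7 to 85.2. Of 15 conidiation genes passing the filter none was past 2-fold (median log2 ratio -0.07). nsdD, an early regulator of fruiting bodies, ranged from 128 to 266, esdC from 10.8 to 138 and mutA from 0 to 6.91.

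The same nitrogen sources in other libraries gave partly the same picture. In the areB deletion strain on glucose, 95 genes (1.31%) were past 2-fold higher on urea and 95 (1.31%) lower. They included 39 of the 84 genes higher in the wild type (46.4% of the 84, 41.1% of the 95) and 51 of the 201 lower ones (25.4% of the 201, 53.7% of the 95). Among the 201, the share past 2-fold the same way was 35 of the 91 genes whose wild type libraries did not overlap (38.5%) and 16 of the 110 that did (14.5%). Among the 84 it was 31 of 68 that did not overlap (45.6%) and 8 of 16 that did. A single gene, AN2319, was past 2-fold the opposite way. Its wild type values were 33.1, 13.8 and 28.3 normalised reads on urea and 133, 34.0 and 14.8 on ammonium tartrate, so its wild type ratio rests on ammonium library A.

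Of the 18 genes called in the wild type, 15 were past 2-fold the same way in the deletion strain and all 18 had the same sign. Among the 15, the deletion strain libraries of AN2572, AN2037 and AN11697 overlapped between the nitrogen sources. ureA had 213, 349 and 392 normalised reads on urea in the deletion strain, against 7.45, 7.95 and 8.91 on ammonium tartrate (limma adjusted p = 0.0355 in that strain). AN4822 had 14.5, 17.3 and 23.7 on urea, against 689, 844 and 679 on ammonium tartrate (adjusted p = 0.00161). The log2 ratio of the group means of mepA was 5.57 without areB, against 5.99 in the wild type libraries. For nmrA it was -0.87 without areB, against -1.45 in the wild type libraries. limma called 3 genes higher (0.0416%) and 2 lower (0.0277%) in the deletion strain. The difference between the strains' responses was called for 0 genes in either direction, with 220 of 7210 at an unadjusted p under 0.05 (3.05%). For AN7539 that difference was 3.33 ± 1.62 on the log2 scale (SE), with urea means of 1725 in the wild type and 59.6 in the deletion strain. A missed call does not show that the strains responded alike.

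On fructose the wild type had 222 genes past 2-fold higher on urea (3.05%) and 198 lower (2.72%). These held 23 of the 84 genes higher on glucose (27.4% of the 84, 10.4% of the 222) and 57 of the 201 lower ones (28.4% of the 201, 28.8% of the 198). Opposite directions past 2-fold were found for 3 of the 84 and 18 of the 201. The called gene AN2572 was among the 3, at a log2 ratio of -1.01 on fructose. It had 377, 91.1 and 295 normalised reads on urea with fructose, against 199, 43.2 and 1298 on ammonium tartrate, which overlap. AN4822 had group means of 35.5 normalised reads on urea and 10088 on ammonium tartrate on fructose. The fructose libraries, again lettered by falling depth, lay far apart within groups for several of the nitrogen genes. ureA had 0.863, 219 and 0 normalised reads on urea with fructose, against 1.70, 3.82 and 13.9 on ammonium tartrate, so its log2 ratio of 3.31 came from 1 library and the groups overlapped. mepA had 27.6, 372 and 19.4 on urea with fructose, all above the 1.70, 5.09 and 17.9 on ammonium tartrate. meaA had 42.3, 1049 and 27.5 on urea with fructose, against 28.01, 58.5 and 23.9 on ammonium tartrate, with overlap. The high value was in urea library B in all 3 genes.

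Other genes had 1 high library in each group. AN8903 had 323, 210.5 and 1224 normalised reads on urea with fructose, against 134, 34.3 and 1611 on ammonium tartrate. AN5939 had 251, 164 and 693 on urea with fructose, against 126, 90.3 and 1185 on ammonium tartrate. Library C was the high one in both groups for both genes, so the log2 ratios of their means, -0.02 for AN8903 and -0.34 for AN5939, rest mainly on that library. prnD, whose wild type ratio on glucose rests on ammonium library A, had 32.8, 5.13 and 2471 on urea with fructose, against 35.65, 3.82 and 137 on ammonium tartrate, which overlap. limma called 0 genes on fructose, with 67 of 7201 at an unadjusted p under 0.05 (0.930%), and 0 genes for the difference between the carbon sources, with 65 at an unadjusted p under 0.05 (0.903%). AN4822 was in neither of these fits, because its ammonium mean on fructose, 10088 normalised reads, lay above the limit for recovering reads per library. Its log2 ratio of the group means was -8.11 on fructose and -4.69 on glucose, a difference that was not tested. For the genes that were tested, a missed call does not show that the responses on glucose and on fructose were alike.

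**Figure D5:**
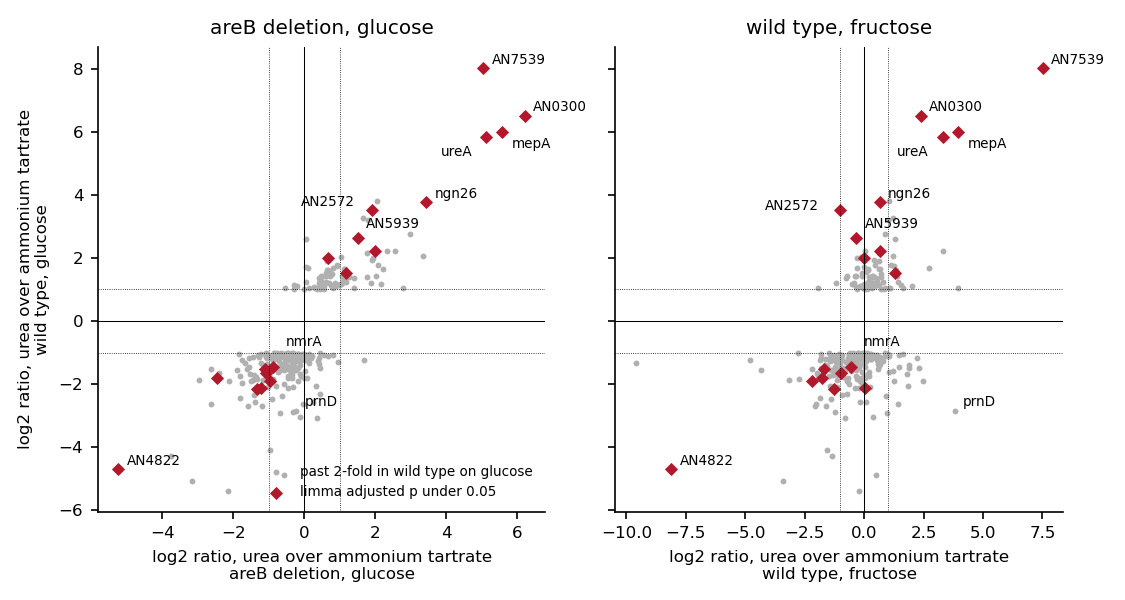
Log2 ratio of urea over ammonium tartrate in the wild type on glucose (vertical axis) against the same ratio in the areB deletion strain on glucose and in the wild type on fructose (horizontal axes), for the 285 genes past 2-fold in the wild type on glucose. Diamonds are the 18 genes called by limma, of which 18 share the sign in the deletion strain and 14 on fructose.

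Over all 7272 genes passing the filter, the wild type ratios on glucose correlated with those of the deletion strain at a Pearson's r of 0.56 and a Spearman's rho of 0.37. With the wild type ratios on fructose the values were 0.25 and 0.13. These are correlations across genes, which are not independent replicates, and no library is shared between the comparisons.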

How the data were processed

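Total RNA was depleted of ribosomal RNA with a yeast kit and sequenced in pairs, per the labels' protocols. The submitters' processing notes name HTSeq 0.9.1 and DESeq2 1.16.1, beside GATK, Trimmomatic and FastQC. The sources used here do not name an aligner, genome build or gene annotation. The deposited table holds, for 8728 genes, a signal in each of 8 groups, which is the authors' mean of normalised counts over 3 libraries. It also holds the authors' fold changes of areB deletion over wild type (a ratio) and the authors' adjusted p-values of those comparisons, neither of which enters the results here.

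A group mean is a sum of whole reads, each worth a fixed step per library. The steps were solved from low means, and whole reads then followed uniquely for every mean up to 5000 (relative tolerance 1e-14). A test on simulated data covered only the lower part of that range, so recovery at the higher means was not tested in that way. In the 6 libraries 60 genes were not solved, all of them past the filter, with a largest absolute log2 ratio of 0.69. Libraries so recovered cannot be tied to replicate numbers. The design written first foresaw group means alone and no test. limma 3.58.1 (R 4.3.3) with voom weights, which needs the recovered reads, was added after seeing the data.

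Log2 ratios are of group means plus 1 for genes with a mean of at least 10, so those of low genes are understated. They lie on another scale than limma log2 fold changes. Samples labelled as biological replicates were compared as such, and the labels do not say how the cultures were separated. Each p-value sets the difference between groups against the spread between these samples, which limma moderates over all tested genes. The members and the gene lists were chosen with earlier results of these data known, and 203 of 650 listed symbols were not matched, gdhB and ureC among them. Named genes are 20 fixed nitrogen genes, the largest changes with and without a symbol, list members past 2-fold and neighbouring genes. Genes called by limma and those named for their spread between libraries were added after their values were seen. Gene order and chromosomes come from RefSeq (ASM1142v1). A left-out library, another scaling, filter, pseudocount, fold or shared spread were tried as alternatives.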

Additional observations from a re-analysis of the deposited data

How the results depend on the processing

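The counts of genes past 2-fold, 84 higher and 201 lower on urea, depended on the settings that define them. They were 50 and 114 with a pseudocount of 10, 155 and 417 with no filter, 39 and 83 with a mean of at least 50, 246 and 671 at 1.5-fold and 19 and 30 at 4-fold. Without urea library B and ammonium library C they were 104 and 302. Leaving out 1 library gave 87 to 149 higher and 149 to 356 lower, and for genes whose libraries do not overlap 73 to 133 higher and 106 to 317 lower. Counting genes of the same sign in place of those past 2-fold gave 79 higher and 172 lower in the areB deletion strain and 62 higher and 140 lower on fructose.

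limma's 10 higher and 8 lower were 24 and 12 when the spread was shared with the deletion groups on glucose. That fit kept 12 of the 18 genes. Adjusted p in it was 0.290 for AN2037, 0.260 for AN11697 and 0.247 for AN2572. For ngn26, AN3348 and nmrA it was 0.0685, 0.0547 and 0.0525. The counts were 0 and 0 with the spread shared over all 8 groups, where 229 genes had an unadjusted p under 0.05. They were 47 and 85 without urea library B and ammonium library C, a pair picked after seeing the data, and 0 to 21 and 1 to 31 when 1 library was left out. The cause was not tested. With limma-trend, scaling to total reads or a mean of at least 50 or of at least 1, 17 or 18 of the 18 were kept.

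Of the named genes past 2-fold, 3 reversed when a library was left out (sign changes of genes within 2-fold are not counted): the log2 ratio of prnD spanned -4.03 to 0.38, the log2 ratio of AN2319 -1.70 to 0.0354 and the log2 ratio of AN3882 -1.73 to 0.40. No paired analysis was possible because the recovered libraries carry no replicate number. Low ammonium levels of ureA, mepA, AN0300 and AN7539 rest on few reads, which limits the size of their ratios but not their direction in these libraries.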

Other observations

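Some genes differed as much between single libraries as between nitrogen sources, and their values are given without a test. lysF, of lysine synthesis, had 499, 1588 and 664 normalised reads on urea and 509, 474 and 1781 on ammonium tartrate, so that urea library B and ammonium library C held the high values. In the areB deletion strain on glucose it had 479.6, 476 and 1609.6 on urea and 881, 1867 and 827 on ammonium tartrate, again with 1 high library in each group. AN10722 had 1115, 4343 and 685 on urea and 718, 571 and 574 on ammonium tartrate. hsp20, a small heat shock protein, had 117, 35.3 and 64.1 on urea and 519, 186 and 25.6 on ammonium tartrate. Its values in the deletion strain were 131, 199.9 and 12.3 on urea and 166, 5.30 and 194 on ammonium tartrate.

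F-box proteins, which choose targets for ubiquitination, were counted as a list added after the values were seen. Of 29 members passing the filter, 1 was past 2-fold higher and 2 lower, with a median log2 ratio of -0.09. AN3203, one of the 2, had 149.8, 73.7 and 173 normalised reads on urea and 485, 657 and 398 on ammonium tartrate, without overlap (limma adjusted p = 0.0713). atrA, an ABC transporter gene, had 199, 137 and 212 on urea and 64.9, 62.4 and 75.5 on ammonium tartrate, also without overlap (limma adjusted p = 0.0936). Lists drawn by words of the gene descriptions in the table, also after the values were seen, gave 4 of 9 genes whose description names nitrate limitation past 2-fold higher and 0 lower (median log2 ratio 0.94). For genes described as induced by nitrate it was 5 of 22 higher, AN7539 among them, and 3 lower (median -0.13). For those described as repressed by nitrate it was 0 of 11 higher and 2 lower (median -0.10). AN2821 had 1 read over the 3 urea libraries and 14.3, 18.0 and 35.1 normalised reads on ammonium tartrate. AN8337 had 0.60, 0 and 0 on urea and 112, 31.2 and 2.696 on ammonium tartrate.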
